A study of Homo sapiens with 16 samples.

Results

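The constitutive narrow open regions of senescent and proliferating fibroblasts were 36440 of 149504 merged open regions on chromosomes 1 to 22, or 24.4%. They were chosen by presence and width alone: peaks of the 10 paired-end ATAC-seq lists that overlapped by at least 1 bp were merged, and a region was kept when each of the 10 lists held a peak in it and its merged width was under 2000 bp. Presence in all 10 lists held for 37197 regions, and 757 of these were 2000 bp or wider and are not members. In ATAC-seq a transposase inserts sequencing adapters into accessible DNA, so a peak marks a stretch of open chromatin.

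The cells were IMR-90 ER:Ras, a human lung fibroblast line with an oncogenic Ras fused to the oestrogen receptor, which 4-hydroxytamoxifen (4-OHT) switches on. All groups but one received 100 nM 4-OHT for 6 days and are called senescent. The paired-end groups were siFOXF1/2, senescent cells with siRNA against the forkhead factors FOXF1 and FOXF2 (n = 2), cJUN/JUND-KD, senescent cells with siRNA against JUN-family subunits of AP-1 (n = 2), Sen, senescent cells with control siRNA (n = 4), and Pro, cells with control siRNA and no 4-OHT (n = 2). The cJUN/JUND-KD treatment label also names JUNB, and Pro is given as senescent in the cell type field although it had no 4-OHT. A single-end set held sip300/CBP, senescent cells depleted of the acetyltransferases p300 and CBP, sip65, depleted of the NF-kB subunit p65, and Sen, with 2 libraries each. All libraries come from 1 line, and no label says whether replicates were separate cultures, so the spread between them, which is all that a p-value here measures, may be technical.

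Chromatin that stays open across cell states is generally found at promoters of genes that most cells use and at insulator sites held by CTCF, a zinc-finger protein that shapes chromosome loops. Distal enhancers, where AP-1, forkhead factors and p300/CBP bind, vary more with cell state. No hg19 gene annotation or sequence was used here, so the regions are given by position and not by gene.

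The level used throughout is column 7 of the deposited lists, the fold enrichment of reads at a peak's summit over the local background. A region's level in a library was that of its strongest peak, and for comparisons it was divided by the library's median over all regions open in all 10 lists. A region was called higher or lower in a comparison when all libraries of one group lay beyond all of the other and the group means differed by at least 1.5-fold. Because the same peaks chose the members, paired-end levels and calls are descriptions with no test.

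The members were mostly single peaks. Their merged width had a median of 829 bp, with quartiles of 634 and 1104 bp, against a median of 564 bp for the 37549 regions that held a peak in all 4 Sen lists but not in all 10 lists. A member merges peaks of all 10 lists and the other regions those of fewer, and the rule limited width, so these widths are not like for like. Each list held exactly 1 peak in 32069 members (88.0%), and in those the stretch covered in all 10 lists had a median of 311 bp. Summits of all 10 libraries lay within 100 bp of each other in 22573 members (61.9%), and the median range of summits was 81 bp. Mean column 7 over the Sen lists had a median of 12.2 in members and 9.13 in the regions open in all Sen lists but not in all 10. Presence of the same peaks set these groups of regions apart, so this difference is a description only. At the width limit, the 130 widest members, within 50 bp below 2000 bp, had a median column 7 of 9.98, and the 99 regions from 2000 bp to under 50 bp above it had 9.33.

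Presence in 9 of 10 lists was the nearest miss. Of the 7355 regions under 2000 bp with a peak in exactly 9 lists, 2025 lacked it in cJUN/JUND-KD replicate 1 and 2214 in replicate 2. Without those libraries, 1 at a time, 38479 and 38659 regions would have been members. Fewest were lost to Sen replicate 3, with 27 regions.

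Members made up 38.3% of all open regions on chromosome 19, the chromosome with the highest share, and 21.2% to 29.0% on the other autosomes. The nearest other member lay 13534 bp away at the median, and within 10000 bp for 39.8% of members.

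The strongest member by its lowest library, chr17:22020547-22020883 (hg19, as are all positions here; 337 bp wide), had column 7 of 51.7 and 50.6 in siFOXF1/2, 48.4 and 51.2 in cJUN/JUND-KD, 48.7, 49.6, 51.5 and 58.7 in Sen and 47.8 and 49.1 in Pro. It was also high in the single-end lists, with 42.2 and 37.2 in sip300/CBP, 39.4 and 34.4 in sip65 and 41.6 and 41.5 in Sen. All 16 libraries thus held this peak, each well above its own median. Over all members the 95th percentile of mean column 7 was 17.9. No list of artefact-prone positions was applied here, so the part of mapping artefacts in such extreme levels was not tested. The second strongest, chr11:85195011-85195283 (273 bp), had 35.1 and 35.6 in siFOXF1/2, 37.7 and 38.3 in cJUN/JUND-KD, 34.8, 35.0, 38.3 and 42.3 in Sen and 39.0 and 36.7 in Pro.

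Among members at or above the median strength, chr16:30569124-30570106 (983 bp) varied least. Its column 7 was 19.4 and 18.0 in siFOXF1/2, 14.2 and 15.4 in cJUN/JUND-KD, 17.2, 17.4, 19.1 and 19.0 in Sen and 21.3 and 20.9 in Pro, and after division by library medians the highest library stood 1.08-fold above the lowest. Over all members that ratio had a median of 1.59-fold. It stayed under 1.5-fold in 14088 members (38.7%) and reached 2-fold in 6278 (17.2%). Presence in every list thus went with graded differences in level at some members and nearly constant levels at others.

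**Figure D1:**
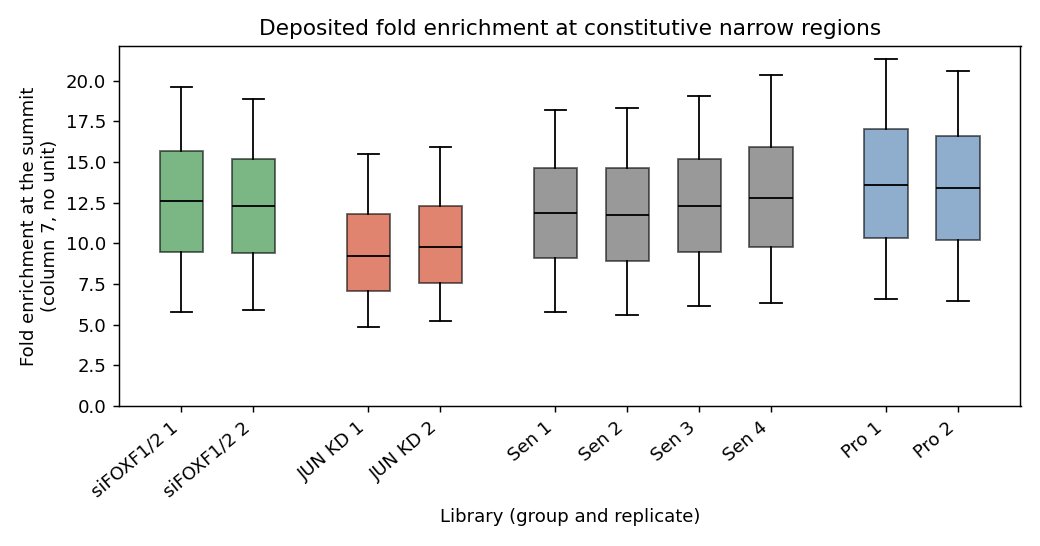
Deposited fold enrichment (column 7, no unit, linear axis) of all 36440 members in each of the 10 paired-end libraries, with medians as lines, quartiles as boxes and 5th to 95th percentiles as whiskers. The 2 cJUN/JUND-KD libraries have the lowest medians, 9.23 and 9.79, and the 2 Pro libraries the highest, 13.6 and 13.4.

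Library medians of column 7 over members differed by group. They were 12.6 and 12.3 in siFOXF1/2, 9.23 and 9.79 in cJUN/JUND-KD, 11.8, 11.7, 12.3 and 12.8 in Sen, and 13.6 and 13.4 in Pro. Sen averaged 12.2 ± 0.475 (SD, n = 4) and Pro 13.5 ± 0.150 (SD, n = 2), a difference of -0.15 in mean log2 median with no overlap of libraries. cJUN/JUND-KD averaged 9.51 ± 0.393 (SD, n = 2), which was 0.35 lower than Sen on the log2 scale, and siFOXF1/2 averaged 12.4 ± 0.258 (SD, n = 2), overlapping Sen. The median of all members is a property of a library, and the comparisons below are relative to it.

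Pileup and covered width differed between groups as well. The summit pileup, the number of fragments stacked at the summit, had a median of 135 and 102 in the siFOXF1/2 libraries, 68 and 53 in the cJUN/JUND-KD libraries, 107 to 132 in Sen and 81 and 92 in Pro, recovered from the deposited fold and p-value. Expressed over each library's genome-wide background, the members' pileup was 0.87 lower on the log2 scale in cJUN/JUND-KD than in Sen, 0.07 lower in Sen than in Pro with overlap, and 0.24 higher in siFOXF1/2 than in Sen. Peaks in members covered a median of 684.5 bp in siFOXF1/2, 424.5 bp in cJUN/JUND-KD, 644.5 bp in Sen and 502 bp in Pro (means over libraries). The part of depth in these differences was not tested.

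Most members kept their relative level in senescence, and those called were more often higher in Sen than lower by column 7 divided by library medians, but more often lower when it was left undivided and by summit pileup. Of the 36440, 2549 were called higher in Sen than in Pro and 1141 lower, or 7.00% and 3.13%. Over all 48397 regions with a peak in every Sen and Pro list, 8.68% were called higher and 3.2% lower, so the members' shares lay under that background. The members are 36440 of these 48397 regions, so closeness to the background is partly built in and nothing is read from it. Changes in 89.8% of members were within 1.5-fold either way, against a median SD between replicates of 0.13 (log2) in Sen and 0.08 in Pro.

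The region furthest above Pro was chr7:23940-24503 (564 bp). Its column 7 was 30.2, 29.3, 35.9 and 37.9 in Sen, against 10.6 and 10.4 in Pro, a 3.52-fold higher level after division by library medians (log2 1.81). All 4 Sen libraries stood clear of both Pro libraries, while none of the 6 single-end lists held a peak there. The next, chr1:190036460-190037621 (1162 bp), had 17.5, 19.2, 19.2 and 22.1 in Sen, against 6.93 and 5.71 in Pro, 3.43-fold higher. It had 8.82 and 11.3 in cJUN/JUND-KD and 20.5 and 15.0 in siFOXF1/2, so relative to library medians both cJUN/JUND-KD libraries lay between Pro and Sen, and siFOXF1/2 replicate 2 lay below every Sen library while replicate 1 lay among them. At chr7:119185075-119185740 column 7 was 14.7, 12.1, 14.9 and 16.6 in Sen, against 4.74 and 5.37 in Pro (3.20-fold higher), and its siFOXF1/2 libraries disagreed with each other at 4.43 and 10.9.

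Furthest below Pro was chr1:68577458-68578040 (583 bp). It had column 7 of 3.08, 2.53, 3.77 and 4.2 in Sen, against 11.4 and 12.6 in Pro, 3.24-fold lower (log2 -1.70). By summit pileup divided by the library median, which leaves out the local background, the difference there was only log2 -0.20. Both cJUN/JUND-KD libraries, at 5.72 and 6.74, were above every Sen library and below both Pro libraries, also relative to library medians. At chr10:94607963-94609049 (1087 bp) column 7 was 5.83, 5.52, 4.72 and 4.72 in Sen, against 14.2 and 17.4 in Pro, 2.73-fold lower. At chr2:238223711-238224846 (1136 bp) it was 5.31, 3.99, 4.93 and 5.63 in Sen, against 16.3 and 12.7 in Pro, 2.63-fold lower. By summit pileup the difference was log2 -1.19 at the chr10 region and log2 -0.76 at the chr2 region.

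Members called lower had a median level of 0.707 of the library median in siFOXF1/2, 0.821 in cJUN/JUND-KD, 0.601 in Sen and 1.02 in Pro. Members called higher had 1.04 in siFOXF1/2, 0.887 in cJUN/JUND-KD, 1.13 in Sen and 0.639 in Pro. The Sen and Pro values follow from the call, and each set was close to the library median in the group where it was high. The median width was 758 bp for members called lower, 698 bp for those called higher and 845 bp for the rest.

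The counts depended on the measure of level. With column 7 left undivided by library medians, 1355 members (3.72%, background 4.72%) were called higher in Sen and 2928 (8.04%, background 7.91%) lower, so that 31.6% of calls were higher in place of 69.1%. By summit pileup divided by the library median, which leaves out the local background, 5498 members (15.1%) were called higher and 6710 (18.4%) lower, against 16.2% and 16.3% of all regions with values, so that 45.04% of calls were higher. Of the members called by column 7, 2193 of the 2549 higher and 774 of the 1141 lower were called the same way by pileup, and 6 were called oppositely by the 2 measures. With Sen replicates 1 and 2 alone, whose peak names share a style with Pro, column 7 gave 2803 higher (background 10.6%) and 1659 lower (background 4.47%). With Sen replicates 3 and 4 alone it gave 2634 higher (background 7.91%) and 1368 lower (background 5.07%).

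FOXF1/2 depletion went with calls in both directions as well. In siFOXF1/2, 575 members (1.58%) were called higher than in Sen and 854 (2.34%) lower, against 3.93% and 3.01% of all 63857 regions with values, and 96.0% of members were within 1.5-fold. Both shares were thus under that background, which includes the members. By summit pileup 2261 (6.20%, background 9.75%) were higher and 2851 (7.82%, background 9.01%) lower, and with undivided column 7 the counts were 691 (background 4.8%) and 704 (background 2.54%). With Sen replicates 1 and 2 alone, which share the peak-name style of siFOXF1/2, the counts were 572 higher (background 3.77%) and 796 lower (background 3.46%). With Sen replicates 3 and 4 alone they were 1160 higher (background 9.61%) and 1294 lower (background 3.65%).

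Among those lower, chr2:204029004-204029682 (679 bp) had column 7 of 3.87 and 5.47 in siFOXF1/2, against 15.3, 17.3, 15.0 and 11.2 in Sen, 3.23-fold lower (log2 -1.69). Relative to library medians both Pro libraries, at 18.7 and 21.2, were above 3 of the 4 Sen libraries. At another 2 of the leading regions both Pro libraries were below every Sen library. These were chr11:16582795-16583321, with 6.09 and 8.20 in siFOXF1/2, against 17.6, 19.5, 20.1 and 21.2 in Sen (2.83-fold lower), and chr18:34360593-34361142, with 6.64 and 5.47 in siFOXF1/2, against 18.6, 14.2, 17.0 and 16.6 in Sen (2.81-fold lower). Their Pro values were 14.7 and 12.5, and 10.6 and 12.3.

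Among those higher, chr2:224711273-224711715 (443 bp) had 21.0 and 19.9 in siFOXF1/2, against 9.74, 7.72, 6.41 and 7.85 in Sen, 2.55-fold higher (log2 1.35). Its cJUN/JUND-KD libraries, at 5.39 and 6.97, lay within Sen once divided by library medians. At chr5:159906687-159907367 (681 bp) column 7 was 15.4 and 11.0 in siFOXF1/2, against 4.19, 4.36, 7.07 and 5.24 in Sen, 2.49-fold higher. At chr4:20205172-20205708 (537 bp) it was 21.9 and 19.4 in siFOXF1/2, against 11.0, 8.57, 6.65 and 7.01 in Sen, 2.47-fold higher. Relative to library medians, both Pro libraries were above the Sen mean at each of these 3 regions.

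JUN-family depletion likewise gave members called higher and lower. In cJUN/JUND-KD 1553 members (4.26%) were called higher than in Sen and 1762 (4.84%) lower, against 4.83% and 5.41% of all 42961 regions with values, and 90.8% stayed within 1.5-fold. Both shares lay under the background, and the members are 36440 of those 42961 regions, so nothing is read from the closeness. With column 7 not divided by library medians, 190 (0.521%, background 0.677%) were higher and 7795 (21.4%, background 22.5%) lower, so that 2.38% of calls were higher in place of 46.8%. By summit pileup 3520 (9.66%, background 11.3%) were higher and 2914 (8.00%, background 8.31%) lower, and 813 of the 1553 and 946 of the 1762 were called the same way by both measures. With Sen replicates 3 and 4 alone, which share the peak-name style of cJUN/JUND-KD, 980 were higher (background 5.46%) and 1346 lower (background 4.08%). Against Sen replicates 1 and 2 alone 2911 were higher (background 8.8%) and 2678 lower (background 7.89%).

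Members called higher in cJUN/JUND-KD had a median level of 1.08 of the library median there, 0.636 in Sen, 0.671 in siFOXF1/2 and 0.8293 in Pro. Members called lower had 0.689 in cJUN/JUND-KD, 1.18 in Sen, 1.16 in siFOXF1/2 and 0.883 in Pro. The values in cJUN/JUND-KD and Sen follow from the call, while siFOXF1/2, not used in it, lay near Sen in both sets. The cJUN/JUND-KD lists had the lowest median −log10 q at members, 41.4 and 34.9, against 79.4 to 91.3 in Sen, and its part in these counts was not tested.

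The leading region higher, chr13:37352235-37352777 (543 bp), had column 7 of 14.2 and 14.8 in cJUN/JUND-KD, against 5.38, 4.29, 7.15 and 5.89 in Sen, 3.32-fold higher (log2 1.73). Relative to library medians both cJUN/JUND-KD libraries were above every other paired-end library, Pro included, which had 10.5 and 14.3. The next, chr9:67319659-67320919 (1261 bp), had 34.1 and 31.9 in cJUN/JUND-KD, against 11.3, 7.14, 17.8 and 24.1 in Sen, 3.09-fold higher. There Sen replicates 3 and 4, which share the peak-name style of cJUN/JUND-KD, stood above replicates 1 and 2, and both cJUN/JUND-KD libraries stood above all 4.

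The leading regions lower were all higher in Sen than in Pro. At chr7:75580691-75581212 (522 bp) column 7 was 4.67 and 4.49 in cJUN/JUND-KD, against 17.0, 19.6, 18.2 and 15.5 in Sen, 3.00-fold lower (log2 -1.58), and Pro had 8.63 and 5.72. At chr4:56379146-56379706 (561 bp) it was 4.66 and 5.31 in cJUN/JUND-KD, against 18.7, 19.1, 16.1 and 18.0 in Sen, 2.83-fold lower, and Pro had 8.39 and 8.39. Relative to library medians, both cJUN/JUND-KD libraries lay within the Pro range at the first site and below it at the second. The siFOXF1/2 libraries had 13.6 and 18.1 at the first and 15.7 and 18.7 at the second. At chr7:27086493-27087052 (560 bp) column 7 was 4.90 and 5.98 in cJUN/JUND-KD, against 22.4, 21.8, 17.9 and 13.2 in Sen, 2.67-fold lower.

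**Figure D2:**
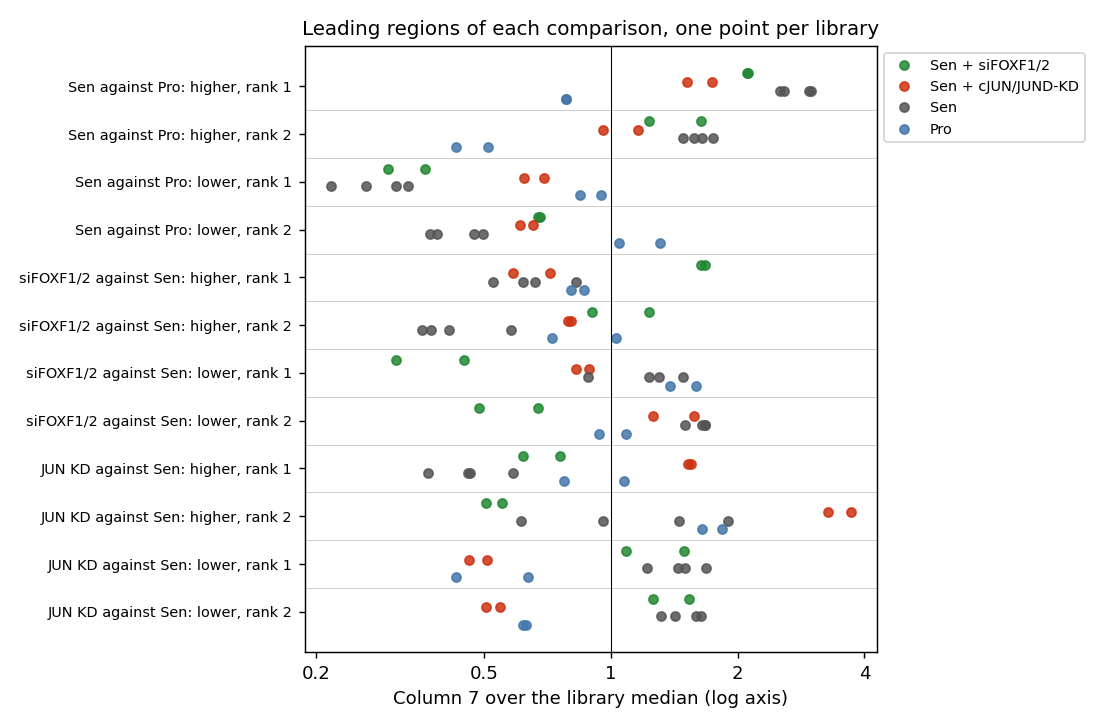
Column 7 over the library median (log axis, no unit) at the 2 leading regions called higher and lower in each paired-end comparison, with 1 point per library and colours for siFOXF1/2, cJUN/JUND-KD (JUN KD), Sen and Pro. Within each line the compared groups do not overlap, and at the second region higher in cJUN/JUND-KD the 4 Sen libraries spread widely.

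Comparisons against Sen share the Sen libraries, so the relation between changes was described only for differences with no library in common. Across the 36440 members, Sen replicates 1 and 2 minus Pro and cJUN/JUND-KD minus Sen replicates 3 and 4 had r = -0.54, as a description. Split into 10 equal bins of the senescence change, members of the lowest bin, at 0.675-fold of Pro, had a median of 1.24-fold in cJUN/JUND-KD over Sen. Members of the highest bin, at 1.63-fold, had a median of 0.833-fold, and each bin's median was lower than that of the bin before. Within 10 equal bins of mean column 7 r ran between -0.60 and -0.45. These points share genome position, base composition and the libraries' depth.

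With the Sen pairs exchanged, r was -0.25. The medians of the 5 lowest bins then lay between 1.10-fold and 1.11-fold with no steady fall, and that of the highest bin was 0.878-fold. In that arrangement both differences cross the peak-name styles in the same direction, whose part was not tested. For siFOXF1/2 minus Sen replicates 1 and 2 against cJUN/JUND-KD minus Sen replicates 3 and 4, r was 0.23, and exchanging the Sen pairs gave -0.27. No direction can be given for how the FOXF1/2 and JUN-family changes relate. For Sen minus Pro against siFOXF1/2 minus Sen, the arrangements gave -0.29 and -0.01.

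**Figure D3:**
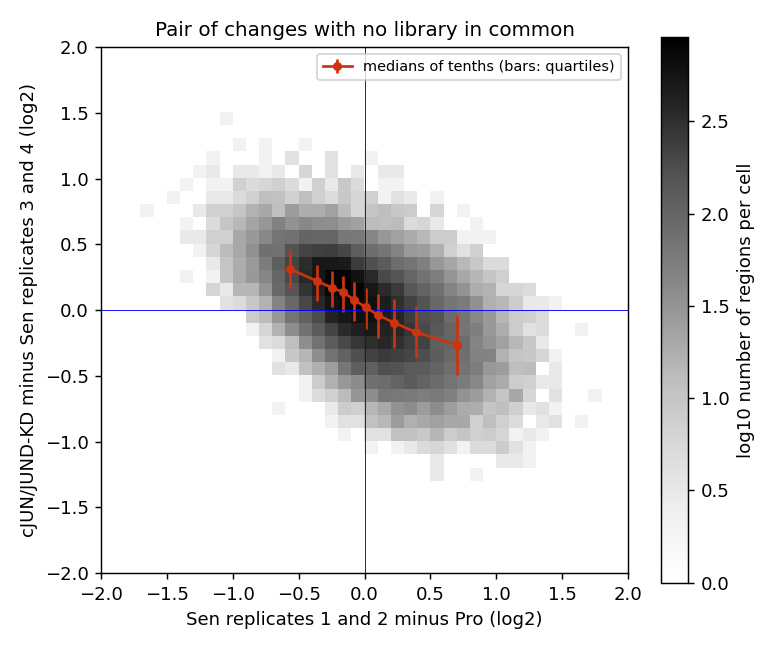
Log2 change of Sen replicates 1 and 2 minus Pro (x axis) against cJUN/JUND-KD minus Sen replicates 3 and 4 (y axis) over 36440 members, with grey for the log10 number of regions per cell and red points for medians of 10 equal bins of x with quartile bars. Medians run downwards from left to right, reaching 1.63-fold on x and 0.833-fold on y in the highest bin (log2 0.70 and -0.26).

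A single group stood apart from all others at few members. Here every library of the group had to lie beyond all other paired-end libraries, with the group mean at least 1.5-fold from the nearest other mean. Pro was lowest at 640 members (1.76%, against 1.72% of the 37197 regions open in all lists) and highest at 75 (0.206%, against 0.204%). The Sen group was highest at 45 (0.121% of all) and lowest at 68 (0.183% of all). siFOXF1/2 was highest at 119 (0.32% of all) and lowest at 280 (0.785% of all), and cJUN/JUND-KD was highest at 275 (0.782% of all) and lowest at 384 (1.04% of all). These backgrounds are made almost wholly of the members, so nothing is read from the match. By summit pileup Pro was highest at 1665 members (4.68% of all) and lowest at 2143 (5.78% of all), and Sen at 454 (1.22% of all) and 425 (1.14% of all). By the same measure siFOXF1/2 was highest at 681 (1.83% of all) and lowest at 993 (2.77% of all), and cJUN/JUND-KD at 912 (2.56% of all) and 417 (1.13% of all).

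The 640 regions lowest in Pro include sites that were high in all senescent groups, with and without knockdown. At chr6:134438495-134439015 (521 bp) column 7 was 13.7 and 17.2 in siFOXF1/2, 13.6 and 11.6 in cJUN/JUND-KD and 14.6, 15.4, 14.5 and 19.2 in Sen, against 6.40 and 5.69 in Pro. Other sites were high in the Sen libraries and low in both knockdowns and Pro. At chr4:11550410-11551549 (1140 bp) column 7 was 7.10 and 9.52 in siFOXF1/2 and 5.49 and 7.97 in cJUN/JUND-KD, against 13.9, 16.6, 16.8 and 15.8 in Sen, and it was 7.66 and 8.06 in Pro. All 6 libraries outside Sen lay below all 4 Sen libraries there. The reverse held at chr17:37437246-37437679 (434 bp), with 15.2 and 12.8 in siFOXF1/2 and 10.1 and 10.1 in cJUN/JUND-KD, against 4.78, 4.86, 6.38 and 6.66 in Sen, and 14.7 and 12.9 in Pro.

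At other sites 1 knockdown had the lowest or highest levels. At chr9:79071051-79071569 (519 bp) siFOXF1/2 had 2.57 and 3.68, against 6.78, 5.53, 7.77 and 10.0 in Sen, with 8.76 and 9.12 in cJUN/JUND-KD and 9.66 and 8.45 in Pro. At chr19:3606650-3607554 (905 bp) cJUN/JUND-KD had 4.21 and 3.53, against 13.6, 12.3, 9.74 and 9.20 in Sen, with 14.9 and 15.2 in siFOXF1/2 and 14.1 and 15.3 in Pro. Relative to library medians both cJUN/JUND-KD libraries lay below all other 8 libraries, among which Sen replicates 3 and 4 were the lowest. At chr5:135402208-135403136 (929 bp) cJUN/JUND-KD had 12.4 and 11.3, against 4.60, 4.72, 8.68 and 7.40 in Sen, with 4.44 and 5.73 in siFOXF1/2 and 5.51 and 5.75 in Pro.

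The place of the strongest point also differed at some members. A summit was called displaced when the groups' summits did not overlap and their means lay at least 100 bp apart. This held for 1598 members in Sen against Pro (4.39%, background 4.86%), 1221 in siFOXF1/2 against Sen (3.35%, background 3.79%) and 1546 in cJUN/JUND-KD against Sen (4.24%, background 4.49%). Each share was a little under that of all regions with values, which are mostly members, so nothing is read from the closeness. Of the members displaced in Sen against Pro, 15.2% were also called in level, and the displaced members were wide, with a median of 1045.5 bp.

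The largest displacements exchanged the leading peak of a wide region. At chr2:106809231-106811112 (1882 bp) the mean Sen summit was 1448 bp from the mean Pro summit, and column 7 was 6.75, 6.38, 6.26 and 7.48 in Sen, against 9.13 and 8.91 in Pro. At chr1:183074425-183076348 (1924 bp) the summit of both siFOXF1/2 libraries lay 1281 bp from the Sen mean, and at chr1:78353751-78355685 (1935 bp) that of cJUN/JUND-KD lay 1373 bp away. At the first, cJUN/JUND-KD replicate 2 had its summit with Pro, and at the last, Pro replicate 2 had its summit with cJUN/JUND-KD, while all libraries outside siFOXF1/2 were together at the second.

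The single-end libraries played no part in choosing the members and give an independent view. They held 17707 to 69760 peaks each, against 58955 to 105828 in the paired-end lists. Members were held more often than other regions open in Sen: 25984 of 36440 (71.3%) had a peak in both single-end Sen lists, against 11303 of 37549 (30.1%) of the regions open in all paired-end Sen lists but not in all 10. The difference was there at like strength. In the weakest of 10 bins of paired-end Sen level the shares were 25.5% for members and 10.0% for the others, and in the strongest bin they were 93.7% and 78.5%. Members led in each of the 10 bins. Regions are not replicates, so these shares have no p.

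**Figure D4:**
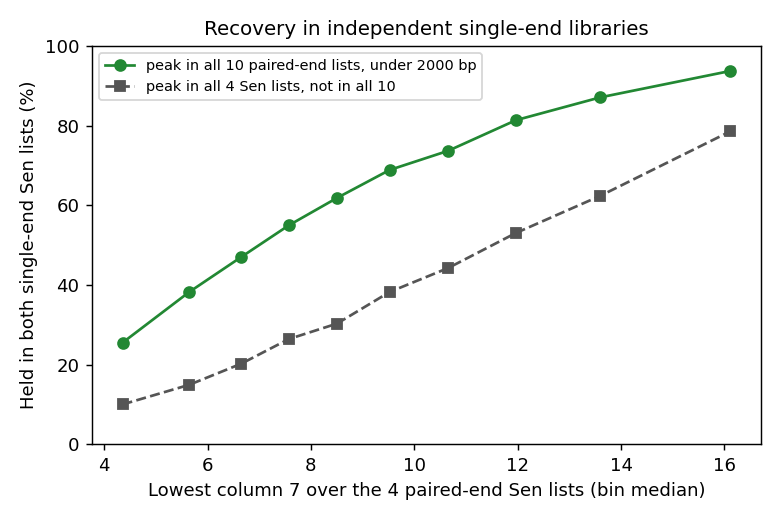
Percentage of regions held in both single-end Sen lists, by the lowest column 7 over the 4 paired-end Sen lists in 10 bins, for members (circles) and for regions open in all 4 Sen lists but not in all 10 (squares). The members' line lies above the other in every bin, from 25.5% and 10.0% in the weakest to 93.7% and 78.5% in the strongest.

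Position and level carried over between layouts. For members in both single-end Sen lists, the single-end summit lay a median of 26 bp from the paired-end one and within 100 bp in 89.0%. Log2 column 7 in Sen correlated across these 25984 members with r = 0.66, as a description. All 6 single-end lists held 11175 members (30.7%), and none held 2298 (6.31%).

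The mean share of members held was lower than in Sen in both sip300/CBP and sip65, with overlap of libraries in sip300/CBP only. An exact two-sided permutation test of 2 against 2 libraries cannot give a p under 0.33. It therefore cannot decide whether either share differed from Sen. sip300/CBP libraries held 78.7% and 65.5%, against 74.2% and 84.3% in Sen. The mean difference was -7.16 percentage points (exact two-sided permutation test, p = 0.67). In the 37549 regions open in all paired-end Sen lists but not in all 10, the share held averaged 29.0% in sip300/CBP, against 41.3% in Sen, a larger difference of -12.3 points (exact two-sided permutation test, p = 0.33). sip65 libraries held 72.3% and 38.0%, against the same Sen libraries, a difference of -24.1 points (exact two-sided permutation test, p = 0.33, the smallest that 2 against 2 libraries allow). In the regions not in all 10 lists the share averaged 16.4% in sip65, against 41.3% in Sen, a difference of -24.9 points (exact permutation p = 0.33). In members it averaged 55.2% in sip65, against 79.2% in Sen. The Sen shares of members and other regions were thus unlike, so differences in points are not like for like between them. Without sip65 replicate 2, the list with 17707 peaks, the difference in members was -6.93 points. Median log2 column 7 over members in all 6 lists differed by -0.01 in sip300/CBP (exact permutation p = 1) and by -0.20 in sip65 (exact permutation p = 0.33).

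At members with a peak in every library compared, few levels differed. In sip300/CBP 232 of 20327 (1.14%) were called higher than in Sen and 176 (0.866%) lower, against 1.87% and 0.972% of all regions with values. In sip65 96 of 12807 (0.750%) were higher and 70 (0.547%) lower, against 0.927% and 0.692%. In both, 98.0% or more of these members were within 1.5-fold. With undivided column 7, sip300/CBP had 214 higher (background 1.77%) and 185 lower (background 1.01%), and by summit pileup 589 (background 4.21%) and 643 (background 3.06%). With undivided column 7, sip65 had 5 higher (background 0.0403%) and 549 lower (background 4.89%), and by summit pileup 303 (background 2.98%) and 117 (background 1.12%). The share of sip65 calls that were higher was thus 0.903% and 72.1% in place of 57.8%, and 43.0% after quantile normalization.

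The leading sites had moderate values. At chr21:47541972-47542593 (622 bp) column 7 was 13.5 and 11.5 in sip300/CBP, against 6.09 and 4.95 in Sen (log2 1.19), and at chr2:216629056-216629786 (731 bp) it was 5.54 and 5.84 in sip300/CBP, against 13.7 and 13.2 in Sen (log2 -1.23). Groups did not overlap at either. For p65, chr10:53592553-53593205 (653 bp) had 11.5 and 11.9 in sip65, against 6.50 and 8.13 in Sen (log2 0.90), and chr14:77952509-77953223 (715 bp) had 7.92 and 6.56 in sip65, against 17.4 and 17.9 in Sen (log2 -1.08). The sip300/CBP libraries, at 16.4 and 12.9, were not called different from Sen at the last of these.

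Close neighbours behaved differently under the 2 measures. For 1446 pairs of members under 2000 bp apart, the change of column 7 in Sen against Pro had r = -0.43 between neighbours, while that of summit pileup had r = 0.36. The same held in siFOXF1/2 (-0.41 and 0.26) and cJUN/JUND-KD (-0.21 and 0.30). At these close pairs the direction thus depended on the measure. For pairs at least 200000 bp apart r ran between -0.01 and 0.03. These are descriptions across pairs of regions in the same libraries.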

How the data were processed

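The deposited files are 16 peak lists, 1 per library, with 10 paired-end and 6 single-end. In them column 7 is a fold enrichment at the summit and columns 8 and 9 are −log10 p and −log10 q values, as the authors deposited them. Per the submitters' processing notes, Bowtie2 2.3.4.1, SAMtools 1.9, deepTools 3.1.1, MACS2 2.1.1 and hg19 were used, with no role or setting stated for any of them. The lists give no read totals, so depth is unknown, and no interval is given. Instead the summit pileup was solved from column 7, taken as (pileup + 1) over (local background + 1), and column 8, taken as a Poisson −log10 p. A solution not whole within 0.02 was replaced by the best whole number, where that gave back the −log10 p within 0.001. After this step the pileup was whole within 0.02 for 100% of the strongest peaks per region in the paired-end lists. The single-end lists were not part of that count.

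Peaks were merged and levels compared with Python 3.11.15, numpy 2.4.6, pandas 2.3.3, scipy 1.17.1 and matplotlib 3.10.9, and the scripts were tested on simulated data. Levels were log2 column 7 minus the library median over regions in all 10 lists. Single-end shares were compared by exact permutation over libraries, where 2 against 2 cannot reach p = 0.05. The members, lists and rules were chosen with earlier results of these data known. Regions were named by largest and smallest change, strength, steadiness, summit displacement and gap between groups, leading ones first, without chromosome 8. Alternatives were no centring, summit pileup, quantile normalization, stricter −log10 q, fold and overlap limits, Sen pairs, a replicate block and leaving out each library. Same-numbered deviations had r between -0.04 and 0.06 over members. The Sen libraries with the peak-name style of cJUN/JUND-KD have no same-numbered library there, so pairing with them was not tested. Taking away the library median also removes any shift common to a whole library. These r values therefore cannot decide whether libraries were paired. Paired-end and single-end lists were tested apart. 0 value columns were left unmapped.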

Additional observations from a re-analysis of the deposited data

Results flagged for a closer look

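The 4 Sen values were examined in 54 groups, made of named regions and some library-wide measures. In 2 of these groups, both named regions, 1 value lay far from the other 3 by Dixon's ratio, the gap to the nearest value over the whole range. The ratio there was above the 95% critical value of Dixon's test for 4 values. Chance gives about 1 in 20 such groups. At chr11:16582795-16583321, one of the regions lowest in siFOXF1/2 against Sen, the ratio was 0.880. Its level over the library median was 1.497 in Sen replicate 1 and 1.67, 1.65 and 1.67 in replicates 2, 3 and 4. Replicate 1 was thus the low one, and still above both siFOXF1/2 libraries. At chr3:31330060-31330731, among the regions with Pro lowest, the ratio was 0.911. Its level was 1.20 in Sen replicate 3 and 1.37, 1.39 and 1.38 in replicates 1, 2 and 4, with all 4 above both Pro libraries.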

How the results depend on the processing

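Without division by library medians, calls higher and lower were 1355 and 2928 in Sen against Pro, 190 and 7795 in cJUN/JUND-KD against Sen, and 5 and 549 in sip65 against Sen. By summit pileup they were 5498 and 6710 in Sen against Pro, 2261 and 2851 in siFOXF1/2, 3520 and 2914 in cJUN/JUND-KD, 589 and 643 in sip300/CBP, and 303 and 117 in sip65. With a fold of 2 they were 384 and 90, 42 and 103, 140 and 126, 3 and 3, and 1 and 1 in the same order. With a −log10 q of at least 10, sip300/CBP had 52 and 15 and sip65 had 6 and 2. Against Sen replicates 1 and 2 alone cJUN/JUND-KD had 2911 and 2678. Against replicates 3 and 4 alone it had 980 higher, and siFOXF1/2 had 1160 and 1294. Requiring peaks to cover 50% of the merged width left 15360 members. The library-wide shifts by pileup over genome-wide background were -0.074, 0.24 and -0.87 (log2) in Sen against Pro, siFOXF1/2 and cJUN/JUND-KD. With a displacement of 50 bp, 3138, 2435 and 3143 summits were displaced. The causes were not tested.

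With the replicate number as a replicate block, siFOXF1/2 had 282 and 384 calls, sip300/CBP 85 and 56, and sip65 26 and 23. Sen against Pro had 1782 and 983 and cJUN/JUND-KD 1767 and 1597, each within 1.5 times of the unblocked count with all Sen libraries. Only Sen replicates 1 and 2 share a number with a Pro or cJUN/JUND-KD library, so that count is not like for like. With Sen replicates 1 and 2 alone and no block, Sen against Pro had 2803 and 1659. In cJUN/JUND-KD the counts were then 2911 and 2678, and all of these were larger than the blocked counts.

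For the relations without shared libraries and the groups set apart, alternatives were chosen after seeing the data. Exchanging the Sen pairs gave r = -0.25 for senescence against cJUN/JUND-KD and a reversed r = -0.27 for siFOXF1/2 against cJUN/JUND-KD, which was 0.38 by pileup. By pileup the regions set apart were 1665 and 2143 for Pro highest and lowest, 454 and 425 for Sen, 681 and 993 for siFOXF1/2, and 912 for cJUN/JUND-KD highest. Quantile normalization gave 184 for siFOXF1/2 lowest.

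Leaving out 1 library at a time, calls higher and lower ran from 2474 to 2856 and 1087 to 1396 in Sen against Pro, 507 to 823 and 686 to 1372 in siFOXF1/2, and 1166 to 2183 and 1571 to 2450 in cJUN/JUND-KD. They ran from 463 to 606 and 310 to 603 in sip300/CBP, and 281 to 425 and 129 to 384 in sip65, where leaving out any 1 library, Sen included, leaves a group of 1 and raised the counts over 1.5 times. The 1372 came without siFOXF1/2 replicate 2. Regions set apart ran from 72 to 105 and 616 to 851 for Pro, 29 to 67 and 59 to 93 for Sen, 91 to 177 and 221 to 566 for siFOXF1/2, and 228 to 495 and 336 to 688 for cJUN/JUND-KD. The 29 came without siFOXF1/2 replicate 1, the 566 without siFOXF1/2 replicate 2, and the 495 and 688 without cJUN/JUND-KD replicate 2. Summits displaced ran from 1853 to 2534, 1424 to 2385 and 1648 to 2911, over 1.5 times the full count without either Pro, either siFOXF1/2 or either cJUN/JUND-KD library. The shifts ran from -0.17 to -0.13, 0.01 to 0.06 and -0.40 to -0.31, and members from 36512 to 38659. Single-end share differences ran from -13.7 to -0.587 points in sip300/CBP and -41.3 to -6.93 in sip65. The r ran from -0.54 to -0.50 and from 0.17 to 0.25. All 30 named regions followed kept their direction in all 282 alternative values run. They were chosen as large changes between groups that do not overlap. Leaving out a library or using a Sen pair alone therefore could not reverse them. Sizes did change: by summit pileup the leading region lower in Sen than in Pro had log2 -0.20 in place of -1.70. No read totals were used here, so the part of depth was not tested.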
